A study of Homo sapiens with 6 samples.

Results

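The 37 genes of the human mitochondrial chromosome were followed in prostate cancer cells treated with HSP70 inhibitors. They were taken by their symbols, which begin with MT-, after the Ensembl identifiers in the expression files were matched to GENCODE release 29, and they made up 37 of the 60658 genes listed. They comprised 13 mRNAs, 2 ribosomal RNAs (rRNAs) and 22 transfer RNAs (tRNAs).

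The mitochondrial chromosome is a small circle present in many copies per cell and is transcribed on both strands as long precursors. Most of its mRNAs and rRNAs lie between tRNA genes, and excision of the tRNAs releases them. Its proteins are all subunits of the respiratory chain, which moves electrons from NADH to oxygen through complexes I, III and IV and makes ATP at complex V. Most subunits of those complexes, and every protein that copies or transcribes the circle, come from nuclear genes.

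C4-2B MDVR cells, an enzalutamide-resistant line derived from C4-2B, and CWR22Rv1 cells were cultured for 48 h with DMSO, with apoptozole (APO) at 10 µM or with VER155008 (VER) at 10 µM. Both compounds bind the nucleotide-binding domain of HSP70, a chaperone that folds and holds proteins at the cost of ATP. The 3 values given for a line follow the order DMSO, APO, VER. Each of the 6 conditions was 1 library, so no value below has a replicate error and no difference was tested. C4-2B MDVR medium held 20 µM enzalutamide, and the source field of those libraries names LNCaP-C4-2B whereas their titles name C4-2B MDVR. The cell type field of all 6 libraries reads as a parental line.

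The poly(A)-selected RNA was sequenced as pairs of 150 bases, and levels were deposited as FPKM, a fragment count divided by transcript length and by the number of mapped fragments. FPKM is scaled within a library, so a large class that goes down leaves more of the total to the rest. Luminal prostate markers (8 of 8 above 1 FPKM in every library, summed level 863 to 1463 FPKM) were present in both lines, whereas the summed leukocyte markers stayed between 0.0571 and 1.64 FPKM and the summed fibroblast markers reached at most 32.8 FPKM. The C4-2B MDVR DMSO library stood apart from the others. Of 9 nuclear RNAs without a poly(A) tail, a list made after the values were seen, 2 were listed at 0 in every library. The 9 summed to 14960.4 FPKM in that library and to between 818 and 1583 FPKM in the other 5. Most of the 14960.4 FPKM came from RN7SL1 (6513 FPKM) and RN7SL2 (7675 FPKM). The part of RNAs without a poly(A) tail in the results that rest on this library was not tested. Those results are both C4-2B MDVR comparisons and the comparison of the lines.

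The ends of the genes are shown because they determine which reads one gene can claim, and because the tail that poly(A) selection captures also completes several stop codons. In 6 of the 13 mRNAs the annotated gene (GENCODE 29, GRCh38) ended inside a codon, leaving T or TA, and added A residues complete a TAA. The last 18 bases of 3 such mRNAs, of the mRNA of cytochrome oxidase subunit 1 and of the only mRNA of the light strand are printed 5′ to 3′ with the last codon or its remnant in capitals.
MT-ND1, chrM:4245-4262, + strand: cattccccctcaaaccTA
MT-CO3, chrM:9973-9990, + strand: tctattgatgagggtctT
MT-CYB, chrM:15870-15887, + strand: aaatactcaaatgggccT
MT-CO1, chrM:7428-7445, + strand: gtatacataaaatctAGA
MT-ND6, chrM:14149-14166, − strand: attgctcgggggaatAGG
MT-CO1 and MT-ND6 ended in AGA and AGG, whereas the other mRNAs with a whole last codon ended in TAA or TAG.

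A pair of mRNAs carry 2 reading frames each. MT-ATP8 and MT-ATP6 share 46 bases, and MT-ND4L and MT-ND4 share 7 bases. In both stretches the first capitals are the start codon of the second gene and the last capitals the stop codon of the first.
MT-ATP8 into MT-ATP6, chrM:8527-8578: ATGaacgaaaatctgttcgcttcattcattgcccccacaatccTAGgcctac
MT-ND4L into MT-ND4, chrM:10751-10772: cctactccaATGcTAAaactaa
Since each pair lies on 1 mRNA, its FPKM ratio compares parts of the same molecule rather than separate transcripts. MT-ATP8 (207 bases) and MT-ND4L (297 bases) are also the 2 mRNA genes under 300 bases, the combined length of a read pair.

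Each of the 22 tRNAs was listed at 0 FPKM in each of the 6 libraries. Their genes span 59 bases (MT-TS2) to 75 bases (MT-TL1), shorter than one read, and mature tRNAs end in CCA and carry no poly(A) tail. The shortest and the longest are given to show how little sequence there was to count.
MT-TS2, serine tRNA, chrM:12207-12265: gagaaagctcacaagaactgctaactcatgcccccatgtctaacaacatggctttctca
MT-TL1, leucine tRNA, chrM:3230-3304: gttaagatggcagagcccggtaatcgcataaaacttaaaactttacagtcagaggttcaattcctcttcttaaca
A level of 0 here says only how the genes were listed, and all further values concern the 15 longer genes.

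The 37 genes held 15.5% of the C4-2B MDVR FPKM in the DMSO library, 14.8% in APO and 16.4% in VER. For CWR22Rv1 cells the shares were 25.7%, 10.4% and 25.7%. The APO library of CWR22Rv1 was thus the lowest of the 6, and the other 2 libraries of that line were the highest. Between 6 and 10 of the 10 most abundant genes in a library were mitochondrial, with 6 in CWR22Rv1 APO and all 10 in CWR22Rv1 DMSO and VER. In bulk RNA, fewer cells with abundant mitochondrial RNA and less of it in each cell cannot be told apart.

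The mRNAs and the rRNAs did not share this order. The 13 mRNAs held 10.7%, 11.7% and 13.6% of the C4-2B MDVR totals. Their share was 23.8%, 8.91% and 22.8% in CWR22Rv1 cells. By contrast, the rRNA share was highest in C4-2B MDVR DMSO (4.82%) and went through 3.07% in APO and 2.80% in VER. CWR22Rv1 cells had rRNA shares of 1.90%, 1.54% and 2.85%. For each FPKM of rRNA there were 2.22 FPKM of mRNA in C4-2B MDVR DMSO and 12.5 FPKM in CWR22Rv1 DMSO, the lowest and the highest of the 6. The difference between the DMSO libraries therefore had opposite directions in the 2 classes, with more mRNA and less rRNA in CWR22Rv1 cells.

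**Figure D1:**
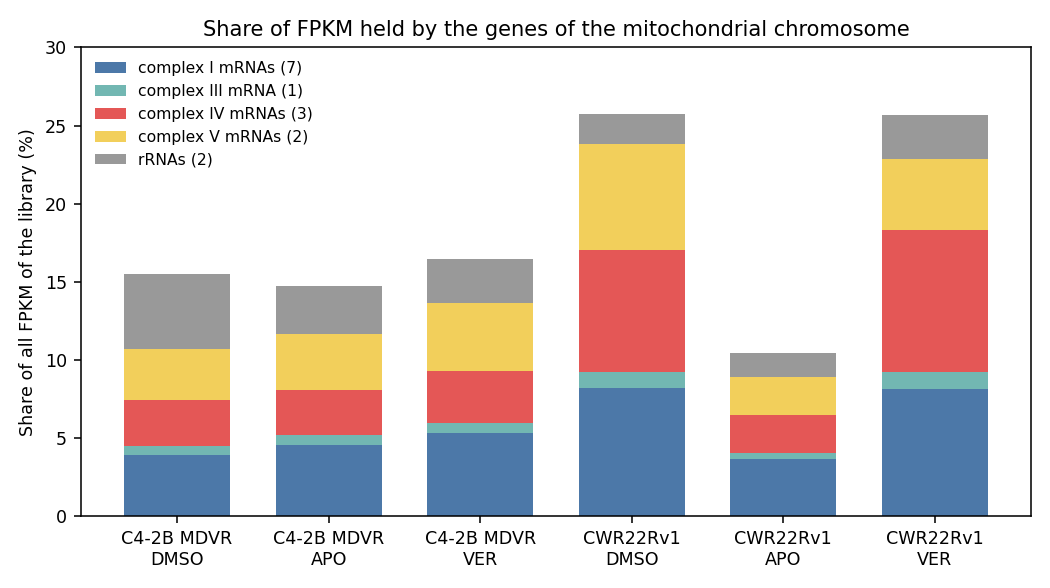
Stacked bars give the share of all FPKM (%) that the mitochondrial genes held in each of the 6 libraries, split into the mRNAs of complexes I, III, IV and V and the rRNAs (1 library per bar). The CWR22Rv1 APO bar reaches 10.4%, against 25.7% for DMSO and VER in the same line, and the rRNA segment is tallest in C4-2B MDVR DMSO at 4.82%.

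Split by complex, subunits of complex I (7 mRNAs) took 3.95% of FPKM in C4-2B MDVR DMSO and 8.22% in CWR22Rv1 DMSO. The 3 subunits of complex IV, cytochrome oxidase, took 2.99% and 7.76%. Complex V, ATP synthase, took 3.24% and 6.80% through its 2 mRNAs, and complex III took 0.523% and 1.04% through MT-CYB alone. In CWR22Rv1 cells with APO these shares were 3.66% for complex I, 2.40% for complex IV, 2.43% for complex V and 0.420% for complex III. All 4 were below their values in each of the other 5 libraries. With VER in the same line, complex IV reached 9.05%, its highest value, while complex V was 4.54%.

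The mixture within the 13 mRNAs varied too. Complex IV made up 32.6% of the summed mRNA FPKM in CWR22Rv1 DMSO, 27.0% with APO and 39.6% with VER. Complex V made up 28.6%, 27.3% and 19.9% in the same order, so complex IV was above and complex V below its DMSO value with VER. Within complex V, MT-ATP8 made up 22.1%, 18.9% and 14.2% of the 13 mRNAs and MT-ATP6 6.41%, 8.35% and 5.74%. The complex V difference with VER thus lay mostly in MT-ATP8, a short gene that overlaps MT-ATP6 on 1 mRNA. C4-2B MDVR cells had complex IV at 27.9%, 24.5% and 24.4% and complex V at 30.3%, 31.1% and 31.9%.

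**Figure D2:**
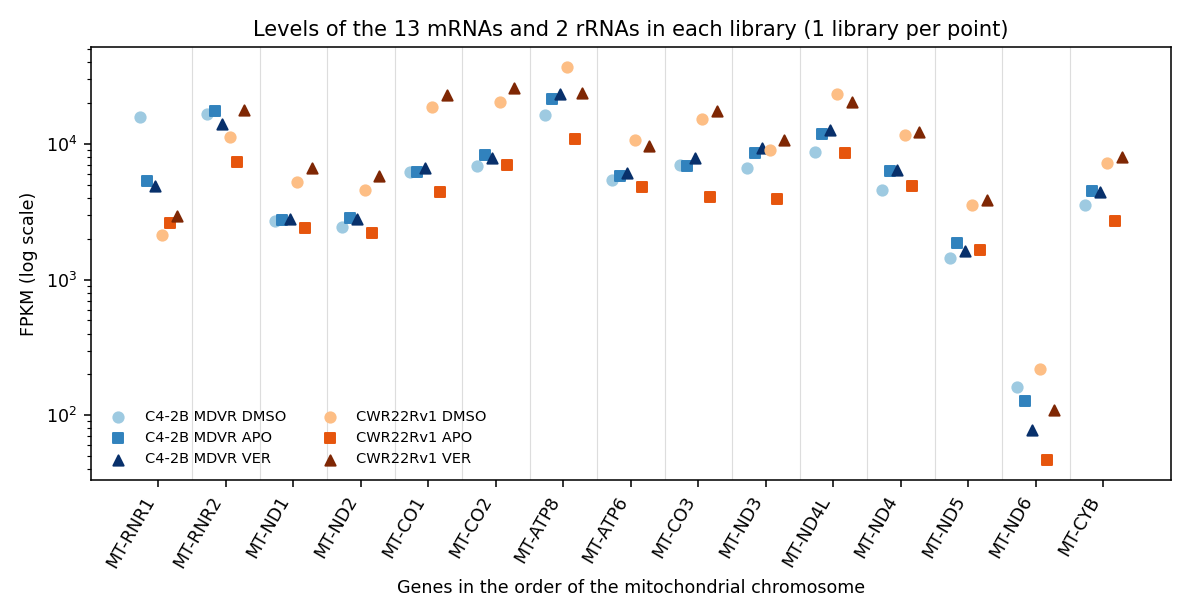
Points give the FPKM (log scale) of the 13 mRNAs and 2 rRNAs in the order of the chromosome, 1 point per library, in blue for C4-2B MDVR and in orange for CWR22Rv1. The CWR22Rv1 APO squares lie lowest for 10 of the 13 mRNAs, MT-ND6 lies below every other mRNA at 46.8 to 219 FPKM, and MT-RNR1 is high in C4-2B MDVR DMSO alone.

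The question of each inhibitor comparison was how the transcripts differed between treated cells and cells of the same line with DMSO. Differences are given as log2(FPKM + 0.1) with the inhibitor minus DMSO, and a gene was counted as higher or lower when it was past 1.2-fold, the threshold of the study (0.26 on this scale). Both inhibitors were set against the same DMSO library in each line.

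APO in CWR22Rv1 cells gave the largest difference. All 13 mRNAs were lower past 1.2-fold, against 39.2% of all genes compared, and all 13 were lower past 2-fold, against 16.8%, while none was higher where 13.8% of all genes were higher past 2-fold. Their median was -1.43 on the log2 scale, or 2.69-fold down, and their range was -2.23 to -1.06, while the median of all genes was -0.01. The mRNAs of complex IV lay lowest, with a median of -1.91, followed by complex V at -1.46, MT-CYB at -1.43 and complex I at -1.20.

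MT-CO1 (chrM:5904-7445), the catalytic subunit of cytochrome oxidase that binds its heme and copper centre, was at 18709.5, 4444 and 23187 FPKM in CWR22Rv1. In the other line it was at 6247, 6170.4 and 6615 FPKM. Its APO level in CWR22Rv1 cells was 0.238 of DMSO (log2 difference -2.07), whereas the 3 C4-2B MDVR values were nearly level. MT-CO1 also had the widest range of the 13 mRNAs, with its highest library 5.22-fold over its lowest.

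MT-CO3 (chrM:9207-9990), another core subunit of the same complex, was at 15364, 4075 and 17391 FPKM in CWR22Rv1 and at 6999, 6929 and 7944 FPKM in C4-2B MDVR cells. MT-CO2 (chrM:7586-8269), which takes electrons from cytochrome c, was at 20379.6, 7032 and 25825 FPKM in CWR22Rv1 cells and at 6883, 8355 and 7925 FPKM in C4-2B MDVR cells. The APO differences in CWR22Rv1 cells were -1.91 for MT-CO3 and -1.54 for MT-CO2. For MT-CO2 the APO library of CWR22Rv1 was no longer the lowest, since C4-2B MDVR DMSO lay just under it.

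The ratio of MT-CO1 to MT-ND1, a complex I gene 5′ of it on the same strand, was 3.59 in CWR22Rv1 DMSO, 1.85 with APO and 3.48 with VER. The C4-2B MDVR ratios stayed between 2.24 and 2.36. MT-CO3 over MT-ND1 was 2.95, 1.70 and 2.61 in CWR22Rv1 cells, and MT-CO2 over MT-ND1 was 3.91, 2.93 and 3.87. Cytochrome oxidase mRNAs were thus further below DMSO than MT-ND1 in the APO library, and by different amounts.

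MT-ATP8 (chrM:8366-8572), a small membrane subunit of ATP synthase, was at 36989.9 FPKM in CWR22Rv1 DMSO, 10918 with APO and 23714 with VER. The C4-2B MDVR values were 16428, 21356 and 23237 FPKM. MT-ATP6 (chrM:8527-9207), the subunit beside the rotor through which protons pass, was at 10713, 4818 and 9615 FPKM in CWR22Rv1 cells and at 5413, 5829 and 6122 FPKM in C4-2B MDVR cells. With APO in CWR22Rv1 cells the shared mRNA thus gave -1.76 for MT-ATP8 and -1.15 for MT-ATP6.

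The ratio of MT-ATP8 to MT-ATP6 was 3.45 in CWR22Rv1 DMSO and went down to 2.27 with APO and 2.47 with VER. The C4-2B MDVR ratios were 3.04, 3.66 and 3.80, so there both inhibitor libraries lay above DMSO. MT-ND4L over MT-ND4, the other pair on 1 mRNA, varied less, with 1.90, 1.86 and 1.96 in C4-2B MDVR cells and 1.99, 1.74 and 1.65 in CWR22Rv1 cells. In both pairs the shorter gene carried the higher FPKM in each library.

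MT-ND4 (chrM:10760-12137), a proton-pumping subunit of complex I, was at 11685, 4889 and 12323 FPKM in CWR22Rv1 cells. The C4-2B MDVR values were 4558, 6329 and 6437 FPKM, so both inhibitor libraries lay above DMSO in that line. MT-ND4L (chrM:10470-10766) was at 23247, 8525 and 20287 FPKM in CWR22Rv1 cells and at 8682, 11760.3 and 12635 FPKM in C4-2B MDVR cells. MT-ND1 (chrM:3307-4262), at the joint of the membrane and matrix arms of complex I, was at 5209, 2402 and 6667 FPKM in CWR22Rv1 cells and between 2686 and 2800.5 FPKM in C4-2B MDVR cells. These 3 genes differed by -1.26, -1.45 and -1.12 with APO in CWR22Rv1 cells.

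The remaining complex I subunits of the heavy strand had APO differences of -1.06 for MT-ND2, -1.20 for MT-ND3 and -1.11 for MT-ND5 in CWR22Rv1 cells. MT-ND5 (chrM:12337-14148), at the far end of the membrane arm, was the least abundant heavy-strand mRNA in every library, between 1439 and 3859 FPKM. MT-ND3 (chrM:10059-10404) ranged from 3953 FPKM in CWR22Rv1 APO to 10694 FPKM in CWR22Rv1 VER. MT-ND2 (chrM:4470-5511) ranged from 2212.5 to 5854 FPKM in the same libraries.

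MT-CYB (chrM:14747-15887), cytochrome b, which passes electrons within complex III, was at 7299, 2717 and 8017 FPKM in CWR22Rv1 and at 3524, 4526 and 4465 FPKM in C4-2B MDVR cells. It followed the mean of the other mRNAs most closely over the 6 libraries (Pearson r = 0.988, n = 6 libraries that share the scaling of FPKM, as a description).

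MT-ND6 (chrM:14149-14673) was the only mRNA of the 13 on the light strand, beside 8 of the 22 tRNAs. It encodes a complex I subunit, and its mRNA is known to lack a stable poly(A) tail. Its level was 161, 128 and 77.6 FPKM in C4-2B MDVR and 219, 46.8 and 109 FPKM in CWR22Rv1 cells. In both lines each inhibitor library lay below DMSO, with differences of -0.34 and -1.05 in C4-2B MDVR cells and -2.23 and -1.01 in CWR22Rv1 cells. It had the lowest difference of the 13 mRNAs in each of these 4 comparisons.

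Set against MT-ND5, which ends at the adjoining base on the opposite strand, MT-ND6 had a ratio of 0.112 in C4-2B MDVR DMSO, 0.0685 with APO and 0.0481 with VER. The ratio in CWR22Rv1 cells was 0.0614, 0.0282 and 0.0281. The inhibitor libraries thus lay on the same side of DMSO in both lines, and no other mRNA was below DMSO in all 4 comparisons. In C4-2B MDVR cells this rests on the DMSO library that was high in RNAs without a poly(A) tail. The part of such RNAs in the MT-ND6 values was not tested. Whether fragments were assigned by strand was not given in the sources used here, and without it heavy-strand precursor RNA across MT-ND6 cannot be told apart from its mRNA.

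**Figure D3:**
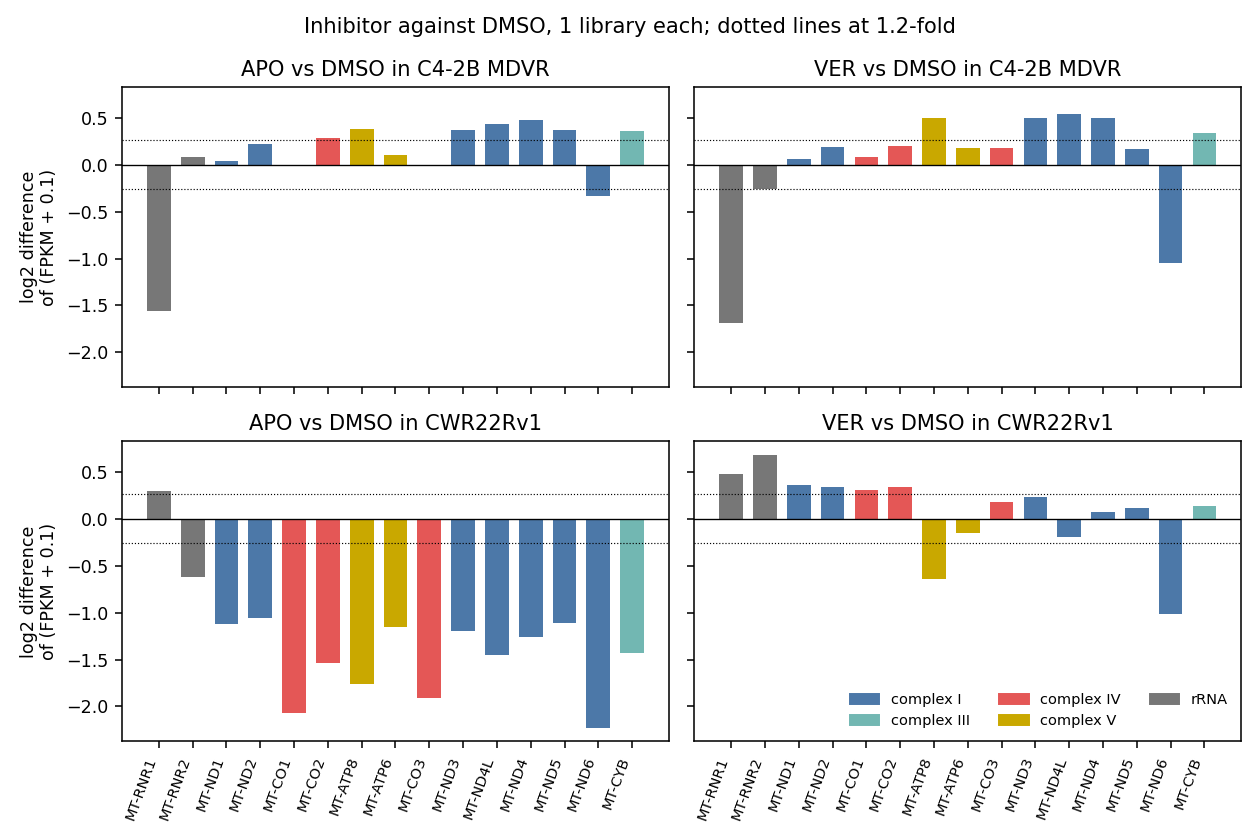
Bars give log2(FPKM + 0.1) of the inhibitor library minus the DMSO library (1 library each) for the 2 rRNAs and 13 mRNAs, coloured by complex, with dotted lines at 1.2-fold. In the APO panel of CWR22Rv1 all 13 mRNA bars run from -2.23 to -1.06, whereas in the APO panel of C4-2B MDVR they run from -0.34 to 0.47.

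As a group, the 13 mRNAs lay near DMSO with VER in CWR22Rv1 cells. Past 1.2-fold, 4 were higher, against 32.1% of all genes compared, and 2 were lower, against 32.3%. Their median was 0.14, and none was higher and 1 lower past 2-fold, against 10.8% and 8.92%. The sum of the 13 differed by 0.004 on the log2 scale. MT-ND1, MT-ND2, MT-CO2 and MT-CO1 were higher, by 0.36, 0.34, 0.34 and 0.31, and MT-ATP8 (-0.64) and MT-ND6 (-1.01) were lower. The medians were 0.31 for complex IV and 0.11 for complex I beside -0.40 for complex V. That of complex V is the midpoint of MT-ATP8 and MT-ATP6 (-0.16, inside 1.2-fold), which overlap on 1 mRNA. Complex I was mixed, since MT-ND6 and MT-ND4L (-0.20) lay below DMSO.

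With APO in C4-2B MDVR cells, 7 of the 13 mRNAs were higher past 1.2-fold, against 37.7% of all genes compared, and MT-ND6 alone was lower, against 35.4%. None was past 2-fold in either direction, where 15.4% of all genes were higher and 13.3% lower. The highest were MT-ND4 (0.47), MT-ND4L (0.44) and MT-ATP8 (0.38), and MT-CO1 and MT-CO3 differed by -0.02 and -0.01. The median of the 13 was 0.28, beside 0 for all genes and 0.47 for 84 nuclear genes with a mean over 1000 FPKM. The small median of the 13 moved with the scaling. Scaled to TPM, in which every library sums to the same total, it was 0.13, and 2 of the 13 were higher. Scaled to the summed nuclear FPKM it was 0.12, again with 2 higher.

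VER in C4-2B MDVR cells placed 5 of the 13 mRNAs higher past 1.2-fold, a share near the 35.6% of all genes compared. MT-ND6 alone was lower, against 34.9%, and it was also the only one past 2-fold, where 14.4% of all genes were higher and 13.3% lower. MT-ND4L, MT-ATP8, MT-ND4 and MT-ND3 were highest, at 0.54, 0.50, 0.50 and 0.50, and the median was 0.19. Of the 13 mRNAs, 12 lay above DMSO by any amount with VER and 10 with APO, the latter 8 under TPM or the nuclear sum, where MT-ND1 and MT-ATP6 lay below DMSO. The median of all genes was 0 in both comparisons. The share of all genes above DMSO by any amount was not computed, so these counts have no baseline.

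The same inhibitor at the same dose and time therefore gave different values in the lines. The median of the 13 mRNAs with APO was -1.43 for CWR22Rv1 and 0.28 for C4-2B MDVR. With VER the medians were 0.14 and 0.19. Without replicates the difference between the lines could not be tested. With APO, 7 mRNAs were higher in C4-2B MDVR and lower in CWR22Rv1, past 1.2-fold in both, against 8.06% of the genes compared in both lines. That count was 2, MT-ND4L and MT-ND4, under TPM and under the nuclear sum, where 6.08% and 7.72% of genes did so.

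Abundant nuclear genes were set beside the 13 mRNAs, without matching their levels. In CWR22Rv1 DMSO the highest nuclear gene was at 4664 FPKM, MT-ATP8 at 36989.9 FPKM and MT-ND6 at 219 FPKM. With APO in CWR22Rv1 cells, 73 nuclear genes had a mean over 1000 FPKM in the 2 libraries. Of these, 60 were higher past 1.2-fold, 7 were lower and the median was 0.62. The summed FPKM of all other genes was 0.15 higher on the log2 scale in the APO library, while the summed mRNA FPKM differed by -1.53. The libraries were also scaled to the nuclear sum, the TPM total or the median ratio of genes, or the added constant was changed. The median of the 13 mRNAs then stayed between -1.58 and -1.31. With APO in C4-2B MDVR cells, 84 nuclear genes had a mean over 1000 FPKM. Of these, 70 were higher past 1.2-fold and 7 lower, with a median of 0.47 beside 0.28 for the 13 mRNAs. With VER in C4-2B MDVR cells, 16 of 71 were higher and 7 lower (median 0.16, beside 0.19). With VER in CWR22Rv1 cells, 33 of 59 were higher and 7 lower (median 0.32, beside 0.14).

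The DMSO libraries of the lines were compared to ask how the levels differed without an HSP70 inhibitor. Enzalutamide was in the C4-2B MDVR medium alone, so the line and the medium cannot be told apart. All 13 mRNAs were higher past 1.2-fold in CWR22Rv1 cells, against 43.2% of all genes compared, and 8 were higher past 2-fold, against 27.2%. None was lower, where 39.2% of all genes were lower past 1.2-fold and 19.4% past 2-fold. The median was 1.13, beside 0.05 for all genes. Complex IV differed most, with 1.58 for MT-CO1 and 1.57 for MT-CO2, and the smallest differences were 0.45 for MT-ND3 and 0.44 for MT-ND6. The highest of the 6 libraries belonged to CWR22Rv1 cells for each of the 13 mRNAs, to the VER library for 9 and to the DMSO library for 4. With APO, by contrast, CWR22Rv1 held the lowest of the 6 values for 10 of the 13, and C4-2B MDVR DMSO held the other 3. How often any gene was highest or lowest in these libraries was not computed, so these counts have no baseline.

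The rRNAs are the structural RNAs of the mitochondrial ribosome, which translates the 13 mRNAs. MT-RNR1 (chrM:648-1601), the 12S rRNA of the small subunit, was at 15829, 5370 and 4928 FPKM in C4-2B MDVR and at 2128, 2615 and 2959 FPKM in CWR22Rv1 cells. MT-RNR2 (chrM:1671-3229), the 16S rRNA of the large subunit, was at 16635, 17598 and 13943 FPKM in C4-2B MDVR cells and at 11216, 7319.7 and 17966 FPKM in CWR22Rv1 cells. MT-RNR1 was therefore high in 1 library, and MT-RNR2 was not.

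The differences of MT-RNR1 in C4-2B MDVR cells were -1.56 with APO and -1.68 with VER, and both rest on that DMSO library, as does the -2.90 between the lines. In the same library the signal recognition particle RNAs RN7SL1 and RN7SL2, which carry no poly(A) tail, were at 6513 and 7675 FPKM. They were at 737 and 798 FPKM with APO and at 380 and 467 FPKM with VER. In the 3 CWR22Rv1 libraries RN7SL1 was between 350 and 411 FPKM. Of that list, made after the values were seen, 7 RNAs were compared. In C4-2B MDVR cells all 7 were lower past 1.2-fold with APO and with VER, against 35.4% and 34.9% of all genes. Between the DMSO libraries 6 were lower in CWR22Rv1 cells and 1 was higher, against 39.2% and 43.2%. The higher one was SNORD3A, at 32.6 FPKM in C4-2B MDVR DMSO and at 57.1 FPKM in CWR22Rv1 DMSO. RMRP was at 648 FPKM in C4-2B MDVR DMSO and at 57.9 FPKM in CWR22Rv1 DMSO. It was below 0.1 FPKM with both inhibitors in both lines. The part of RNAs without a poly(A) tail in the MT-RNR1 values was not tested.

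MT-RNR1 in CWR22Rv1 was higher past 1.2-fold under both APO (0.30) and VER (0.48), where 35.6% and 32.1% of all genes were higher. The APO difference was inside 1.2-fold, at 0.14, under the nuclear sum. MT-RNR2 differed by -0.62 with APO and 0.68 with VER. With APO the 2 rRNAs of the same precursor thus lay on opposite sides of DMSO, and MT-RNR1 lay opposite to all 13 mRNAs. In C4-2B MDVR cells MT-RNR2 differed by 0.08 with APO and -0.25 with VER, within 1.2-fold.

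The ratio of MT-RNR1 to MT-RNR2 was 0.952 in C4-2B MDVR DMSO, 0.305 with APO and 0.353 with VER. It was 0.190, 0.357 and 0.165 in CWR22Rv1 cells. The 2 APO libraries and the C4-2B MDVR VER library lay close to each other. Over the 6 libraries MT-RNR1 had a Pearson r of -0.436 with the mean of the 13 mRNAs and MT-RNR2 one of 0.385, as descriptions of 6 points that share the scaling.

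**Figure D4:**
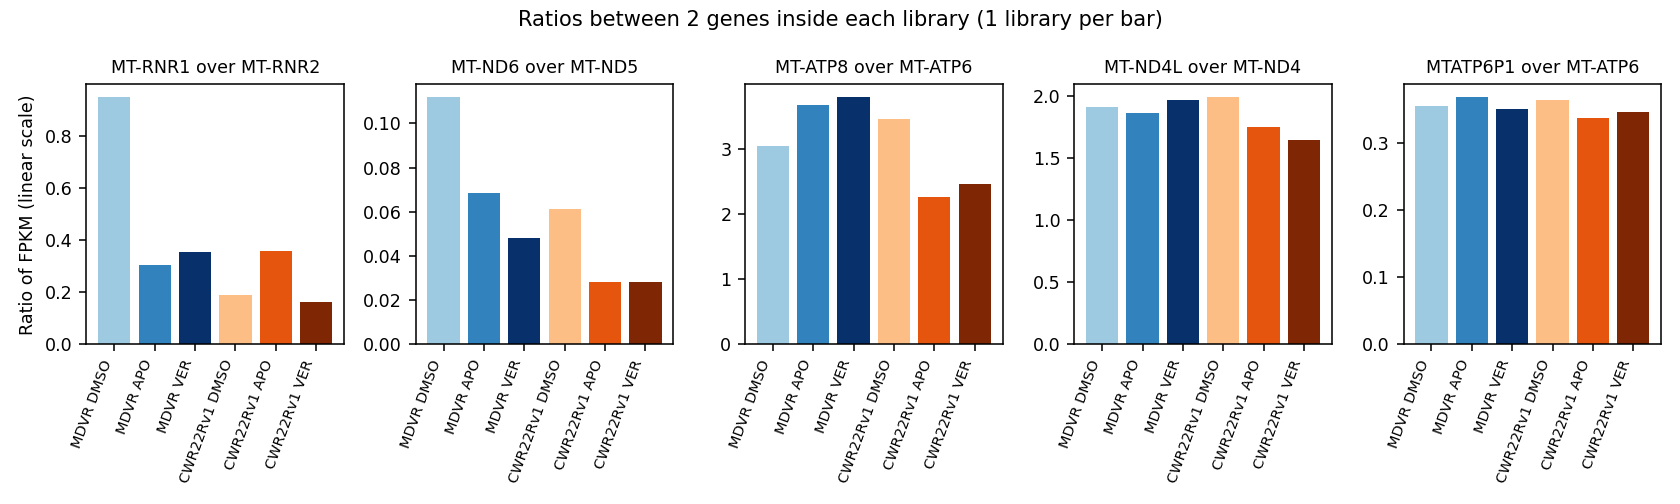
Bars give the ratio of FPKM of 2 genes within each library (linear scale from 0, 1 library per bar) for the rRNAs, MT-ND6 over MT-ND5, the 2 overlapping pairs and the nuclear copy of MT-ATP6. MT-RNR1 over MT-RNR2 is 0.952 in C4-2B MDVR DMSO and at most 0.357 elsewhere, and MTATP6P1 over MT-ATP6 stays between 0.337 and 0.368.

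Fragments of the mitochondrial chromosome are also found in the nuclear genome, and their reads are hard to assign. Of 401 annotated nuclear copies in the files, between 8 and 12 exceeded 0.1 FPKM in a library. MTATP6P1 (chr1:633696-634376, GRCh38), an unprocessed pseudogene, was by far the highest, at 1922, 2146 and 2147 FPKM in C4-2B MDVR and at 3891, 1622 and 3326 FPKM in CWR22Rv1 cells. Over 681 aligned bases it differed from MT-ATP6 at 10, an identity of 98.5%, and its longest identical run was 141 bases. Its FPKM was between 0.337 and 0.368 of that of MT-ATP6 in the 6 libraries, a narrow range, so MT-ATP6 and MTATP6P1 are uncertain as separate values.

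Other copies held little. MTCO1P12 (chr1:631074-632616, 98.7% identical to MT-CO1) was between 15.3 and 88.8 FPKM, and MTND2P28 (chr1:629640-630683, 98.4% identical to MT-ND2) was between 20.8 and 54.7 FPKM. Both were lowest or near lowest in CWR22Rv1 APO, at 15.3 and 21.8 FPKM, and highest in CWR22Rv1 VER. All nuclear copies together summed to between 1673 and 4016 FPKM.

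Nuclear genes that act on the mitochondrial chromosome are given by lists. Of 8 transcription genes, 3 were lower and 2 higher past 1.2-fold with APO in CWR22Rv1 cells, where 39.2% of all genes were lower and 35.6% higher, so neither share of the list stood above that of all genes. The median was -0.13 beside -0.01 for all genes. With APO in C4-2B MDVR cells 5 were lower and 1 higher (median -0.34), against 35.4% and 37.7% of all genes. With VER 5 were lower and none higher (median -0.52) in that line, against 34.9% and 35.6%. With VER in CWR22Rv1 cells 2 were lower and 1 higher, against 32.3% and 32.1%, with a median of -0.14. Both C4-2B MDVR medians lay below 0, beside medians of 0.28 and 0.19 for the mitochondrial mRNAs.

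POLRMT, the mitochondrial RNA polymerase, was at 32.0, 21.5 and 22.3 FPKM in C4-2B MDVR and at 39.8, 19.4 and 26.3 FPKM in CWR22Rv1 cells. It was below DMSO in all 4 comparisons, with -1.04, the lowest of its 4 values, for APO in CWR22Rv1. TFAM, which bends the promoter and packages the chromosome, differed by -0.37 and -0.97 (APO, then VER) in C4-2B MDVR and by -0.18 and -0.20 in CWR22Rv1 cells. TFB2M, which opens the promoter, differed by -0.60 and -0.68 in C4-2B MDVR cells and by -0.08 and -0.35 in CWR22Rv1 cells.

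The elongation factor TEFM was higher past 1.2-fold with APO in both lines, by 0.38 for C4-2B MDVR and by 0.42 for CWR22Rv1. In C4-2B MDVR it was inside 1.2-fold under TPM (0.23) and the nuclear sum (0.22). Among the MTERF family of the same list, MTERF1 differed by -0.63 and -0.43 with APO in C4-2B MDVR and CWR22Rv1 cells. MTERF2 differed by 0.08 and -0.62, MTERF3 by -0.32 and -0.03, and MTERF4 by -0.01 and 0.56. No single direction thus held across the transcription genes with APO in CWR22Rv1 cells, where every mitochondrial mRNA was lower.

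Of 23 genes that process or degrade mitochondrial RNA, 10 were lower and 5 higher with APO in CWR22Rv1 cells (median -0.22). The lower share was near the 39.2% of all genes, and the higher share, 21.7%, was below the 35.6% of all genes. REXO2, an exonuclease for very short RNA, was the highest at 1.15, and FASTKD5, which acts at precursor junctions that lack a tRNA, was the lowest at -0.95. In C4-2B MDVR cells REXO2 differed by 0.81 and FASTKD5 by -0.56 with APO. Of 6 rRNA-modifying enzymes, 3 were lower and 1 higher, against 39.2% and 35.6% of all genes, with APO in CWR22Rv1 cells (median -0.20), from -0.65 for MRM1 to 0.65 for NSUN4.

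Of 16 genes that replicate and maintain mitochondrial DNA or supply its nucleotides, 8 were lower and 6 higher in the same comparison, against 39.2% and 35.6% of all genes. Their median was -0.04, and 0.07 under TPM. DNA2, a nuclease and helicase, was the lowest at -2.06, and RRM2B, a ribonucleotide reductase subunit, was the highest at 0.86. The 9 markers of mitochondrial content, outer membrane and matrix proteins among them, had a median of -0.20 with 4 lower and none higher, against 39.2% and 35.6% of all genes. TOMM40, the import pore, was the lowest at -0.70, and VDAC2, an outer membrane channel, the highest at 0.22. The 9 nuclear regulators of respiratory genes had a median of 0.19, from -1.12 for PPARGC1B to 1.04 for GABPB1. The medians of all these lists lay closer to 0 than -1.06, the smallest difference among the 13 mRNAs. They moved with the scaling. The transcription genes went to -0.02 under TPM and -0.28 under the nuclear sum, and the regulators to 0.31 and 0.04. The content markers also had medians below 0 in the other inhibitor comparisons. With APO in C4-2B MDVR cells the median was -0.39 (5 lower, none higher, against 35.4% and 37.7% of all genes). With VER in that line it was -0.37 (8 lower, none higher, against 34.9% and 35.6%). With VER in CWR22Rv1 cells it was -0.36 (5 lower, 1 higher, against 32.3% and 32.1%).

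The partner subunits made from nuclear genes showed smaller differences in that library pair. Of 79 nuclear subunits of complexes I to V, 28 were lower and 10 higher past 1.2-fold with APO in CWR22Rv1 cells, both below the 39.2% and 35.6% of all genes, and the median was -0.13 (-0.02 under TPM and -0.29 under the nuclear sum). Complex IV had the lowest median of the 5 complexes among nuclear subunits (-0.40, 7 of 11 lower against 39.2% of all genes), as it did among mitochondrial ones (-1.91). ATP5MC1, a subunit of the ATP synthase rotor ring, differed by -1.54, NDUFB3 of complex I by -1.34 and COX7B of complex IV by -0.93. SDHA of complex II (-0.74) and UQCR10 of complex III (-0.68) were the lowest of their complexes. The highest were NDUFS4 (0.91), ATP5IF1 (0.45), CYC1 (0.29), SDHB (0.20) and COX4I1 (0.17). ATP5IF1, an inhibitory factor of ATP synthase, was counted with the complex V subunits.

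Between the DMSO libraries, nuclear complex IV was also the highest complex in CWR22Rv1 cells, with 9 of 11 higher, against 43.2% of all genes, and a median of 0.69, beside 1.57 for the 3 mitochondrial subunits. Nuclear subunits of complexes I, III and V had medians of 0.21, -0.21 and 0.19, beside 0.96, 1.05 and 1.08 for the mitochondrial ones. With APO in C4-2B MDVR cells, nuclear complex I had 16 of 37 higher, against 37.7% of all genes, and a median of 0.19, which was 0.04 under TPM and 0.02 under the nuclear sum. The 7 mitochondrial subunits had a median of 0.37 on the deposited scale. Nuclear complex IV had 6 of 11 higher and none lower, against 37.7% and 35.4% of all genes. Its median was 0.38 (0.23 under TPM, 0.22 under the nuclear sum), beside -0.01 for the 3 mitochondrial subunits. Nuclear complexes III and V had medians of -0.004 and 0.03, beside 0.36 and 0.24 for the mitochondrial subunits. With VER in C4-2B MDVR cells, 23 of the 79 nuclear subunits were lower and 9 higher (median -0.08), both below the 34.9% and 35.6% of all genes.

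**Figure D5:**
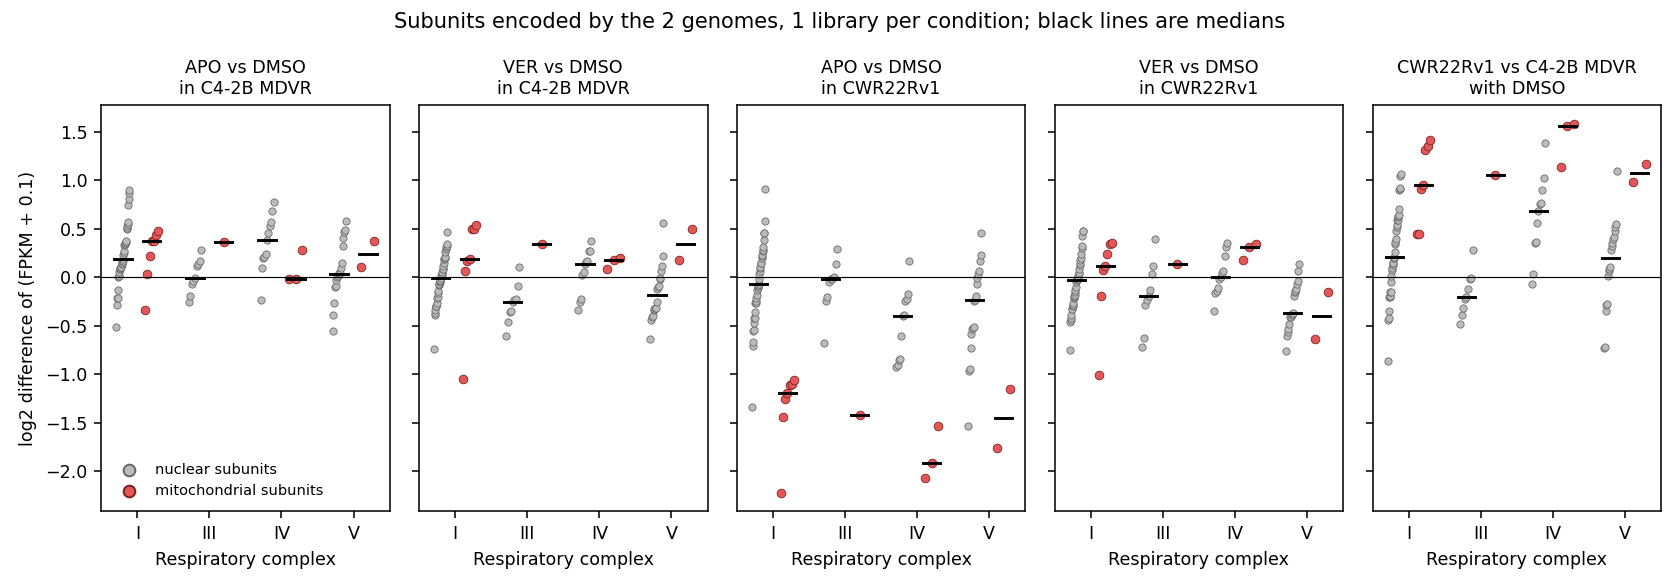
Points give the log2 difference of (FPKM + 0.1) for each nuclear subunit (grey) and each mitochondrial subunit (red) of complexes I, III, IV and V in the 5 comparisons, with black lines at the medians (1 library per condition). With APO in CWR22Rv1 cells the mitochondrial medians lie between -1.91 and -1.20 and the nuclear medians between -0.40 and -0.02, where those of complexes I and III were above 0 under TPM, at 0.05 and 0.09.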

How the data were processed

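Poly(A)-selected RNA of both lines was sequenced as 150-base pairs, with 1 library per condition. The library kit is given as KAPA Stranded mRNA-Seq in the labels and as TruSeq in the methods of the study. The submitters' processing notes name HISAT, Cufflinks, Cuffnorm and GRCh38, and versions were not given in the sources used here. The authors deposited FPKM per gene for each library. Whole reads could not be recovered from the FPKM, so depth is unknown. The ratio of low values in C4-2B MDVR DMSO to those in each other library peaked between 1.14 and 1.64. Few genes lay at the peak.

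Of the 60658 identifiers, 57047 matched GENCODE 29, from which lengths, positions and sequences were read (Python 3.11.15, pandas 2.3.3, biopython 1.88). For each line, genes above 0.1 FPKM in at least 1 of its 3 libraries entered the comparison, and for the lines the 2 DMSO libraries were used. Differences were log2(FPKM + 0.1), which understate changes of low genes. A gene was called past 1.2-fold. Within a line no test was possible with 1 library per condition, and a fit over both lines with the line as a term was not run. The calculation was checked on simulated data. The members and lists were chosen with earlier results of these data known, and the list of RNAs without a poly(A) tail, 1 of whose entries had no match, was added after the values were seen. Named genes were all 13 mRNAs and 2 rRNAs, tRNAs above 1 FPKM (none), every transcription gene, the extremes of the other nuclear lists with APO in CWR22Rv1 cells, and the 3 highest nuclear copies. Some RNAs without a poly(A) tail were named outside this rule.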

Additional observations from a re-analysis of the deposited data

Results flagged for a closer look

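Members past 1.2-fold in opposite directions in the lines under the same inhibitor are given here with the CWR22Rv1 difference minus the C4-2B MDVR difference, on the log2 scale. With 1 library per condition none of these differences was tested. Of the genes compared in both lines, 8.06% were higher in C4-2B MDVR and lower in CWR22Rv1 past 1.2-fold with APO and 5.97% with VER, and 5.09% and 5.57% the other way. With APO the value was -2.14 for MT-ATP8, -1.89 for MT-ND4L, -1.81 for MT-CO2, -1.79 for MT-CYB, -1.73 for MT-ND4, -1.57 for MT-ND3 and -1.48 for MT-ND5, and -1.71 for the median of the 13 mRNAs. Under TPM or the nuclear sum, MT-ND4L and MT-ND4 alone of these 7 mRNAs stayed past 1.2-fold in C4-2B MDVR, and the other 5 did not. MT-RNR1 had the opposite sign, at 1.86 with APO and 2.16 with VER, and both rest on the C4-2B MDVR DMSO library. Its APO value lost the opposite call under the nuclear sum. MT-ATP8 was the only mRNA of this kind with VER, at -1.14. Groups of 1 library allow no search for an outlying sample.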

How the results depend on the processing

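No paired analysis was possible within a line because each condition was 1 library, and a fit over both lines was not run. No value past 1.2-fold changed sign under any alternative run. Of 300 log2 values, 26 inside 1.2-fold changed sign under another scaling, each at most 0.16 in size before and 0.13 after, among them MT-ND1 (0.04 to -0.11), MT-ATP6 (0.11 to -0.04) and MT-RNR2 (0.08 to -0.07) with APO in C4-2B MDVR under TPM. Weighted by gene length, the share of the 37 genes was 3.43% (DMSO), 3.14% (APO) and 3.29% (VER) for C4-2B MDVR and 5.63%, 2.13% and 6.41% for CWR22Rv1, an alternative added after the data were seen. The median of the 13 mRNAs with APO in C4-2B MDVR cells went from 0.28 to 0.13 in TPM, 0.12 scaled to the nuclear sum and 0.22 without MT-ATP8 and MT-ND4L, inside 1.2-fold, and its 7 higher mRNAs became 2 under both scalings. Past 1.5-fold and past 2-fold, no mRNA was higher with APO in C4-2B MDVR (0 and 0 of 7), with VER in C4-2B MDVR (0 and 0 of 5) or with VER in CWR22Rv1 cells (0 and 0 of 4), and 0 were lower with APO in C4-2B MDVR cells. Past 2-fold, 1 was lower with VER in CWR22Rv1 cells and 8 were higher between the lines. Genes called over all genes went from 14700 to 9719 and 5777 (APO, C4-2B MDVR), from 14196 to 9279 and 5584 (VER, C4-2B MDVR) and from 13905 to 7906 and 4268 (VER, CWR22Rv1) at 1.5-fold and 2-fold. At 2-fold they went from 16169 to 6603 (APO, CWR22Rv1) and from 17222 to 9737 (lines), and above 1 FPKM from 13905 to 9170 (VER, CWR22Rv1). Under TPM, genes above 1 FPKM had their APO median shifted from 0.02 to -0.12 in C4-2B MDVR and from -0.01 to 0.10 in CWR22Rv1 cells. Over pseudocounts and scalings, the median of the 13 stayed between 0.19 and 0.21 (VER, C4-2B MDVR), 0.07 and 0.18 (VER, CWR22Rv1) and 1.08 and 1.26 (lines). No replicate could be left out, and the spread between cultures is unknown.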
